A study of Homo sapiens with 79 samples.

Results

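The mRNAs that encode enzymes of cholesterol synthesis and regulators of cholesterol synthesis and uptake were followed through 24 fRIP experiments in K562 cells. The 8 genes were named by their role in the pathway, with earlier results of these data known, and comprise the synthesis enzymes HMGCS1, IDI1, FDFT1, SQLE, LSS and CYP51A1 and the regulators INSIG1 and SREBF2. They were 8 of 48453 genes in the gene table and passed, all 8 of them, the filter on low values that 25442 genes passed. The isoform table held 70 isoforms of these 8 genes.

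Cells make cholesterol from acetyl-CoA in a long chain of enzymes, many of which sit in the membrane of the endoplasmic reticulum. HMGCS1 forms HMG-CoA at the start of the mevalonate pathway, IDI1 interconverts the isoprenoid building blocks, FDFT1 joins farnesyl units to squalene, SQLE oxidises squalene, LSS folds the product into lanosterol, and CYP51A1 removes a methyl group from lanosterol. SREBF2 encodes the membrane-bound precursor of a transcription factor that turns on the genes of this pathway and of cholesterol uptake. INSIG1 retains that precursor, through SCAP, in the endoplasmic reticulum when sterols are plentiful.

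K562 is an established line of human leukemia cells, and all libraries came from untreated K562 cells that were lightly cross-linked with formaldehyde and sonicated. In fRIP, RNA that is recovered with an antibody against 1 protein is sequenced beside input RNA taken from the lysate. The antibodies were directed at 6 RNA-binding proteins (RBPs: PABP, IMP1, HUR, HNRNPU, HNRNPH1 and ADAR) and 18 chromatin-associated proteins (CAPs), which were WDR5, RBBP5, SUZ12, EZH2, CBX3 and its phosphorylated form phospho-CBX3, the remodelers CHD1, CHD4 and CHD7, the modifying enzymes CBP, PCAF, HDAC1, LSD1, PHF8 and DNMT1, and CTCF, NUP98 and STAG2. STAG2 was included in the study as a target with little RNA recovery. Of the targets, 22 had 3 libraries and EZH2 and STAG2 had 2, giving 70 fRIP libraries beside 9 input libraries labelled as 3 sets of 3. The replicates of a target came from different dates and lysates of the same cell line. No fRIP with a non-targeting antibody was used here. A value above input therefore cannot, by itself, be separated from RNA that any immunoprecipitation of this kind would recover.

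Depth was estimated from low FPKM values, which rise by a fixed step for each fragment. It ranged from 1.82 to 55.1 M fragments (M stands for mega) over the fRIP libraries (median 12.5) and from 11.2 to 28.6 M over the input libraries (median 19.7). The 3 ADAR libraries were the shallowest, at 1.82 to 2.18 M. All 9 marker genes of K562 cells, among them the fetal globin genes and GATA1, had a median of at least 1 FPKM over the input libraries, and their summed level was 900.5 to 2618 FPKM in input and 585.6 to 11586 FPKM in the fRIP libraries. Of 5 markers of other cell types in the table, 1 reached a median of 1 FPKM over the input libraries, and their sum was 2.25 to 7.24 FPKM in input and 1.31 to 33.1 FPKM in the fRIP libraries. The part of these differences in the results below was not tested. No 2 libraries held identical values.

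Sequences of the mRNAs are shown here first because the members differed in base composition, and several of the RBPs are known for short motifs. The main coding isoform of IDI1 had a GC content of 37.9%, at percentile 7.83 of 13406 mRNAs, while that of LSS had 60.4% (percentile 84.9) and that of SREBF2 58.0% (percentile 77.2). The other main isoforms had 39.0% (HMGCS1), 41.0% (CYP51A1), 44.8% (INSIG1), 46.5% (SQLE) and 49.6% (FDFT1). The motif ATTTA, the core of AU-rich elements, was searched on the mRNA strand. It occurred 13 times in IDI1, which per kilobase was at percentile 98.9, 13 times in the longer HMGCS1 (percentile 85.1), 9 times in CYP51A1, 7 times in INSIG1, 6 times in SQLE, 4 times in SREBF2, 2 times in FDFT1 and not at all in LSS, and it was present in 72.8% of the 13406 mRNAs. The run GGGGG occurred 19 times in SREBF2 (percentile 94.1 per kilobase) and 10 times in LSS (percentile 84.4), overlapping runs counted separately, was absent from INSIG1 and was present in 74.5% of mRNAs. The motif TTTTAAAA occurred 2 times each in INSIG1 and CYP51A1 and 1 time each in HMGCS1, SQLE and SREBF2, and was present in 30.8% of mRNAs. In the windows below, read 5′ to 3′ on the mRNA strand from hg19, capitals mark 1 copy of the motif in each window, the first IDI1 window holds a second copy of ATTTA in lower case, and in the CYP51A1 window a second copy begins at the last capital letter. They come from the isoforms ENST00000381344 (IDI1), ENST00000003100 (CYP51A1), ENST00000340368 (INSIG1), ENST00000457828 (LSS) and ENST00000361204 (SREBF2).
IDI1, 3′ UTR, chr10:1087024-1087053, minus strand: gttctatcattaATTTAtcattaaatttag
IDI1, 3′ UTR, chr10:1086011-1086040, minus strand: acctcaagacagATTTAttattcttaaatg
CYP51A1, 3′ UTR, chr7:91742257-91742286, minus strand: aaataattacatATTTAtttacctgataaa
INSIG1, 3′ UTR, chr7:155101486-155101515, plus strand: ggaattttgttTTTTAAAAaaataggatca
LSS, coding, chr21:47639445-47639474, minus strand: ccatcccctcctGGGGGaagttctggctgg
SREBF2, coding, chr22:42269874-42269903, plus strand: aagcaggtacctGGGGGagtcaagcagctt
The motifs TTTTT and GAAGAAGA were counted in the same way. TTTTT occurred between 8 times, in SQLE and in FDFT1, and 34 times, in HMGCS1, and was present in 79.4% of mRNAs. GAAGAAGA occurred once, in SREBF2, and was present in 25.5% of mRNAs. A match is a description of the letters and does not mark a binding site.

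Promoter windows of RefSeq on GRCh38.p14, 300 bases long, were matched for 6 of the members, with 9 windows in all because a gene can have several starts. On either strand, GGGCGG was found in 9 of the 9 windows and CCAAT in 6 of 9, against 45.0% and 34.6% of all 35116 windows.

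In the 192 comparisons of a member with input, few differences exceeded 2-fold. A gene was called enriched or depleted where its log2 fold change, on the scale of log2(FPKM + 1), lay beyond 1 in size and limma gave an adjusted p under 0.05. By this rule 11 comparisons (5.73%) were enriched and 5 (2.60%) were depleted, against 6.90% and 5.52% of all comparisons of the 25442 genes. Neither share exceeded the background of all genes, and the counts are read as no result about the group. Calls fell in 8 of the 24 targets, the other 176 comparisons stayed within 2-fold, and the median log2 fold change was 0.16, with 111 comparisons above and 81 below 0. An adjusted p under 0.05 without the size rule was reached in 86 comparisons, 54 higher and 32 lower. The share of all genes under that rule was not taken, so this count too is no result about the group. In all 16 called comparisons the libraries of the target lay outside the range of the 9 inputs, and 14 of them had the smallest two-sided exact permutation p of 3 libraries against 9, 0.00455. The other 2, both in EZH2 fRIP, had the smallest that 2 libraries against 9 allow, 0.0182. These permutation p-values were not adjusted. The 16 were picked by fold change and adjusted p from the same values, so the lack of overlap is no separate support for the calls. Centring each library on its median gene gave 21 enriched and 15 depleted comparisons, of which 14 were shared with the 16, against 7.04% and 6.58% of all comparisons after centring. The split against single input sets was 13 and 3 (set 1), 9 and 14 (set 2) and 14 and 5 (set 3). Shares of all genes against single sets are not given here, so these splits are no result about the group.

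**Figure D1:**
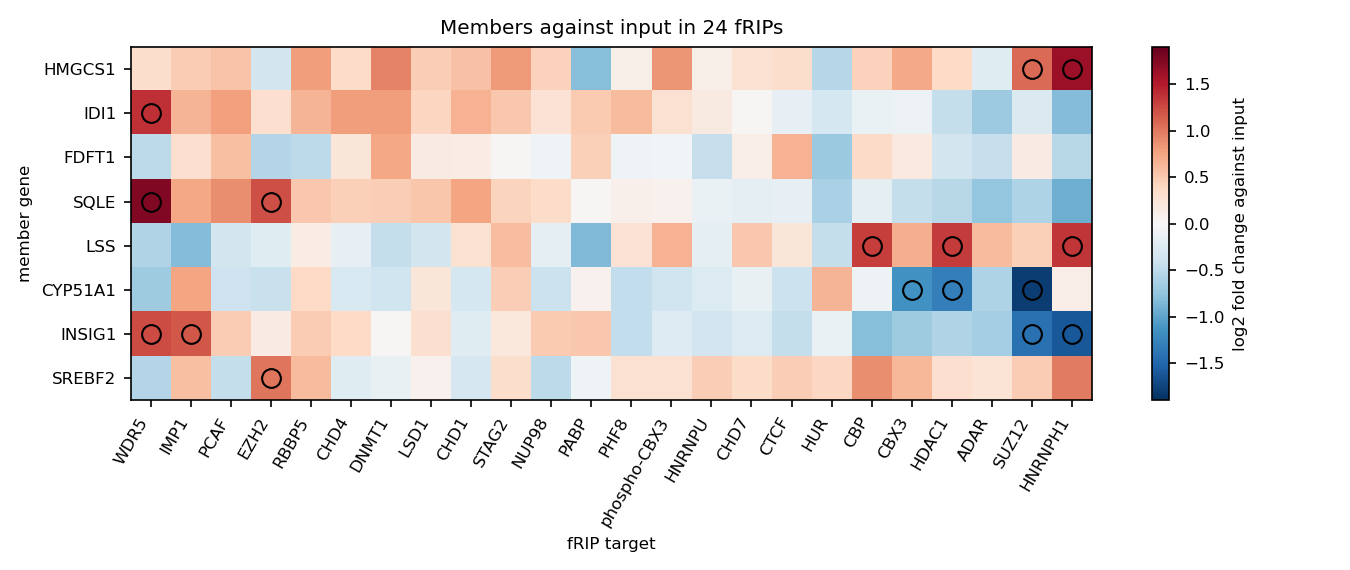
Heat map of the log2 fold change against input of the 8 members (rows) in the 24 fRIPs (columns, ordered by the mean of INSIG1, SQLE and IDI1), on a colour scale from blue (below input) to red (above input), with circles on the 16 called comparisons. WDR5 fRIP holds 3 circles on the red side (INSIG1, SQLE and IDI1), SUZ12 fRIP 1 red and 2 blue, and FDFT1 has none in any column.

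HMGCS1, the enzyme at the start of the mevalonate pathway, was the member with the highest enrichment in HNRNPH1 fRIP. Its input level was 41.6 to 80.5 FPKM over the 9 input libraries, with a median of 59.9. In the HNRNPH1 libraries it stood at 141, 173 and 216 FPKM. All 3 lay above every input library, the log2 fold change was 1.62 ± 0.22 (SE) and the adjusted p was 2.95e-09, in a fRIP where 24.5% of all genes were enriched. SUZ12 fRIP, with 101, 126 and 132 FPKM, also lay above every input (1.08 ± 0.22, adjusted p 2.69e-05), where 15.3% of genes were enriched. At the other end, PABP fRIP held 29.5, 37.3 and 28.4 FPKM, below every input, with a log2 fold change of -0.80 (adjusted p 0.00137) that did not reach 2-fold. PABP binds the poly(A) tails of mRNAs, and 25.8% of genes were called in its fRIP in either direction. In the order of mean levels over the 24 targets and input, only HNRNPH1 and SUZ12 were neighbours whose libraries did not overlap.

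IDI1, the isomerase of the isoprenoid units, stood at 45.8 to 79.8 FPKM in input (median 56.5) and was enriched in WDR5 fRIP. WDR5, a scaffold subunit of the complexes that methylate histone H3 at lysine 4, brought down 198, 168 and 121 FPKM of IDI1, all above every input. The log2 fold change was 1.39 ± 0.14 with an adjusted p of 4.09e-12, and 3.9% of all genes were enriched in this fRIP. The lowest level was in HNRNPH1 fRIP, with 30.4, 35.7 and 35.1 FPKM, all below every input. That difference of -0.82 on the log2 scale (adjusted p 9.3e-07) was short of 2-fold. No pair of neighbours in the order of levels was without overlap.

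SQLE, the squalene epoxidase, gave the largest enrichment of any member. Its input libraries spanned 50.5 to 106.8 FPKM with a median of 60.3, and the 3 WDR5 libraries held 236, 271 and 179 FPKM. The WDR5 and input libraries did not overlap, and the log2 fold change was 1.76 ± 0.20 (adjusted p 2.66e-10). In EZH2 fRIP, the methyltransferase subunit of Polycomb repressive complex 2, SQLE stood at 204 and 119 FPKM, again above every input, with a log2 fold change of 1.23 ± 0.24 and an adjusted p of 2.36e-05, where 10.5% of genes were enriched. The EZH2 libraries differed between themselves, and the call was lost without EZH2 replicate 1. HNRNPH1 fRIP was lowest, with 27.6, 35.4 and 40.9 FPKM and a log2 fold change of -0.93 (adjusted p 7.75e-05), all below every input and short of 2-fold.

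INSIG1, the sterol-regulated retention factor, had calls in both directions. Its input level was 73.6 to 136 FPKM with a median of 87.5. In WDR5 fRIP it reached 249, 237 and 192 FPKM (log2 fold change 1.23 ± 0.14, adjusted p 9.58e-11), and in IMP1 fRIP 234, 188 and 235 FPKM (1.19 ± 0.14, adjusted p 1.92e-10), where 4.23% of genes were enriched. IMP1, also known as IGF2BP1, binds mRNAs in the cytoplasm. All 6 of these libraries lay above every input. In HNRNPH1 fRIP the level was 25.3, 30.8 and 36.0 FPKM (-1.62 ± 0.14, adjusted p 1.35e-15), where 7.9% of genes were depleted, and in SUZ12 fRIP 36.2, 32.9 and 35.7 FPKM (-1.42 ± 0.14, adjusted p 1.56e-13), where 8.6% were depleted. These 6 libraries lay below every input. IMP1 against PABP and CBP against SUZ12 were the neighbours in level whose libraries did not overlap.

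Several calls depended on the input set. The libraries labelled as input set 2, which lay nearest to the input values behind the authors' WDR5 comparison, held more INSIG1 (mean 123 FPKM) and SQLE (90.2) than sets 1 (81.9 and 58.2) and 3 (86.7 and 55.6). Against set 2 alone, INSIG1 in WDR5 fRIP had a log2 fold change of 0.87 and was no longer called. With the replicate number as a block within the set, where the numbers paired the libraries, the value was also 0.87. SQLE and IDI1 stayed called in WDR5 fRIP, at 1.33 and 1.19. Set 2 alone also ended the calls of INSIG1 in IMP1 fRIP (0.83), SQLE in EZH2 fRIP (0.80) and HMGCS1 in SUZ12 fRIP (0.85), for which sets 1, 3 and 1 lay nearest and the calls were kept.

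FDFT1, the squalene synthase, was not called in any of the 24 fRIPs at the gene level on the deposited scale. Its input level, 81.5 to 167 FPKM with a median of 139, was the highest of the 8 members. DNMT1 fRIP held 223, 256 and 202 FPKM, above every input, with a log2 fold change of 0.73 ± 0.21 (adjusted p 0.00374), and 16.4% of genes were called in that fRIP. HUR fRIP held 63.8, 95.5 and 94.5 FPKM, which overlapped the lowest input library, with a log2 fold change of -0.70 (adjusted p 0.00617), and 13.4% of genes were called there. Its 24 fold changes had an SD of 0.42 on the log2 scale, against 0.45 to 0.70 for the other 7 members. Centring each library on its median gene called FDFT1 depleted in ADAR, HNRNPH1 and HNRNPU fRIP and enriched in PCAF fRIP.

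LSS, the lanosterol synthase, was enriched in 3 fRIPs. In input it stood at 37.7 to 56.4 FPKM with a median of 46.5. CBP, a histone acetyltransferase, gave 106, 130.0 and 116 FPKM (log2 fold change 1.32 ± 0.15, adjusted p 2.14e-11), where 9.08% of genes were enriched. The deacetylase HDAC1 gave 101, 124 and 128 FPKM (1.32 ± 0.15, adjusted p 2.66e-11), where 8.42% were enriched. HNRNPH1, which binds G-rich RNA, gave 112, 111 and 138 FPKM (1.35 ± 0.15, adjusted p 3.61e-12). The 9 libraries of these targets all lay above every input and overlapped among themselves. On coding isoforms alone the calls in HDAC1 (0.84) and HNRNPH1 fRIP (-0.17) were lost, and centring also ended the HNRNPH1 call (0.62). PABP fRIP was lowest, with 23.5, 25.3 and 27.9 FPKM and a log2 fold change of -0.84 (adjusted p 1.79e-06), below every input and short of 2-fold.

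CYP51A1, the lanosterol demethylase, had 3 calls, all of them depletions. It stood at 32.2 to 73.8 FPKM in input with a median of 56.8. SUZ12 fRIP held 12.2, 14.6 and 18.9 FPKM, the lowest levels of any member, with a log2 fold change of -1.80 ± 0.24 and an adjusted p of 3.67e-09. HDAC1 fRIP held 17.3, 24.6 and 23.3 FPKM (-1.31 ± 0.24, adjusted p 8.87e-06), where 5.35% of genes were depleted, and CBX3 fRIP held 25.5, 19.7 and 27.7 FPKM (-1.15 ± 0.24, adjusted p 9.11e-05), where 3.65% were depleted. These 9 libraries lay below every input. Against the nearest input set the CBX3 difference was -0.84 and the HDAC1 difference fell just short of 2-fold, and neither was called. The highest level, 101, 75.8 and 102 FPKM in IMP1 fRIP, lay above every input at a log2 fold change of 0.75 ± 0.24 (adjusted p 0.00927), which became 1.06 and called against the nearest input set. The libraries do not mark strand, and AKAP9, on the opposite strand, overlaps the CYP51A1 gene of the annotation used here by 25687 bases. That overlap lies at the 3′ end of the gene span (chr7:91714301-91764117). The main coding isoform of CYP51A1 (chr7:91741467-91763791) lies outside it. AKAP9 was listed at 37.1 to 65.1 FPKM in input and reached 243.5 FPKM in a SUZ12 library, and its part in the CYP51A1 values was not tested. Most 25-base words of CYP51A1 (92.0%) and 47.5% of those of HMGCS1 also occurred in another gene of the annotation used here, mainly genes that overlap them.

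SREBF2, the transcription factor precursor, was called enriched in EZH2 fRIP, and in HNRNPH1 fRIP it fell just short of 2-fold (0.99, adjusted p 1.53e-05). The input libraries held 28.7 to 63.5 FPKM with a median of 54.6, and the 2 EZH2 libraries 87.1 and 126 FPKM. Both lay above every input, with a log2 fold change of 1.01 ± 0.23 and an adjusted p of 0.000243. The value sat at the threshold of 2-fold and the call was lost against the nearest input set (0.91), without EZH2 replicate 2 and without replicate 3 of input set 2. In HNRNPH1 fRIP it was called with a pseudocount of 0.1 FPKM and against input set 2 alone (1.26). WDR5 fRIP was lowest, with 48.2, 35.8 and 23.8 FPKM, a span that overlapped the lowest input library, and a log2 fold change of -0.56 (adjusted p 0.0207). No neighbours in the order of levels were without overlap, as for IDI1, SQLE and FDFT1.

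**Figure D2:**
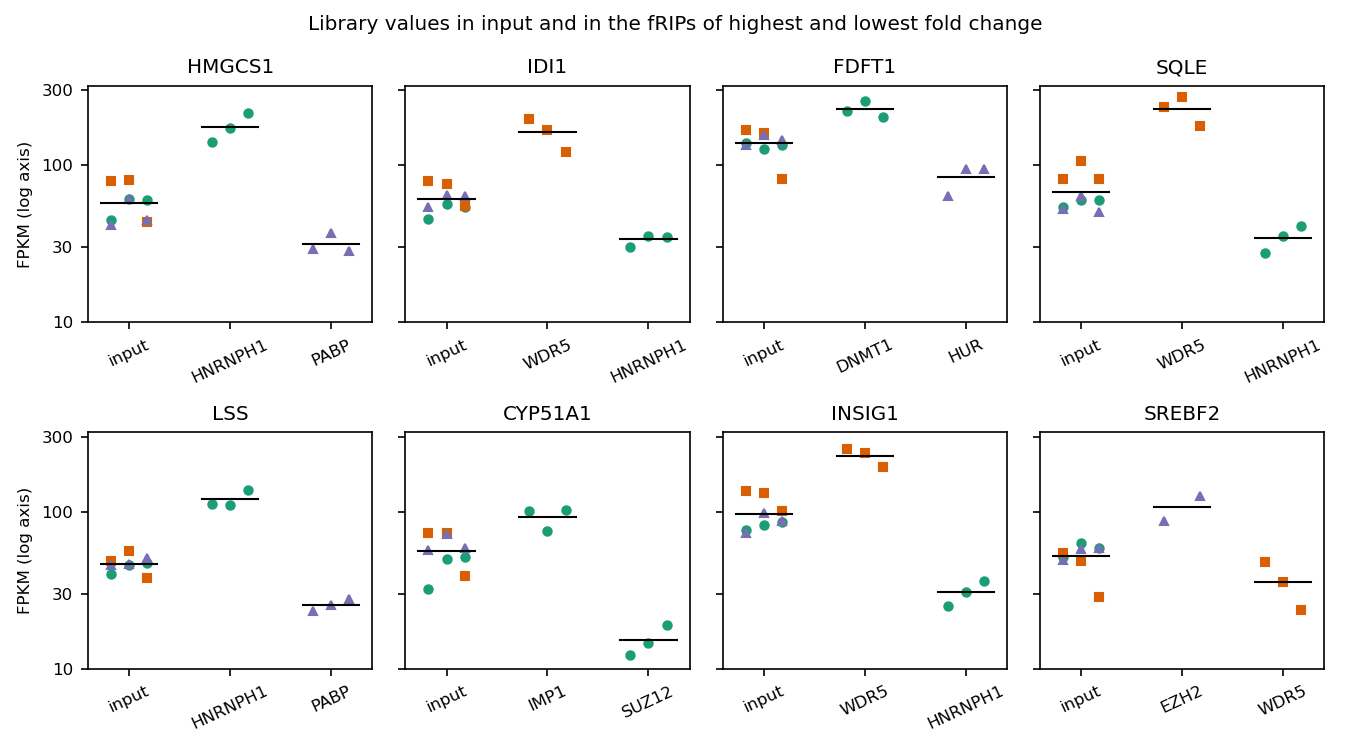
FPKM of each library on a log axis for the 8 members in input and in the fRIPs of highest and lowest log2 fold change, with colours and marker shapes for input sets 1 (green circles), 2 (orange squares) and 3 (purple triangles), fRIP libraries in the colour of their nearest input set, and bars at the group mean. The WDR5 libraries of SQLE, at 179 to 271 FPKM, lie above all 9 inputs (50.5 to 106.8), and the SUZ12 libraries of CYP51A1, at 12.2 to 18.9, lie below all 9 (32.2 to 73.8).

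The remaining 16 fRIPs gave no call for any member. Over all genes, calls in either direction covered 30.9% of genes for ADAR, 12.7% for CHD4, 15.7% for HNRNPU, 9.05% for PCAF, 7.48% for LSD1, 5.49% for phospho-CBX3, 5.38% for NUP98, 4.9% for PHF8, 4.34% for STAG2, 3.01% for RBBP5, 1.89% for CHD7, 1.43% for CHD1 and 1.21% for CTCF, beside DNMT1, HUR and PABP given above. In ADAR fRIP the members lay between -0.73 (SQLE) and 0.61 (LSS), with 6 of 8 below input, and centring each library on its median gene moved all values there by -0.98 on the log2 scale and called 6 of the 8 depleted, against 35.2% of all genes. Centring moved HNRNPH1 fRIP by -0.73, which removed the calls of HMGCS1 (0.89) and LSS (0.62) and called IDI1, SQLE and FDFT1 depleted beside INSIG1, where 22.1% of all genes were depleted. It moved PCAF fRIP by 0.61 and IMP1 fRIP by 0.46, where 5 members each were then called enriched, against 11.8% and 12.5% of all genes. IDI1 in CHD4 fRIP, at 0.80, was called enriched against its nearest input set and, at 1.20, after centring. In STAG2 fRIP all 8 members lay above input, between 0.02 and 0.81, without a call.

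Members of the pathway did not share 1 profile over the 24 targets. Pearson's r between the 24 log2 fold changes of a pair had a median of 0.019 over the 28 pairs, beside 0.016 over all pairs of 10724 genes with at least 5 FPKM in input. Likeness was highest for SQLE and IDI1 (r = 0.89), INSIG1 and SQLE (0.81) and INSIG1 and IDI1 (0.80), and most negative for INSIG1 and LSS (-0.77). The 24 values of a gene share the same 9 input libraries, so these coefficients are descriptions. The genes nearest to SQLE were ABHD17B (0.90), IDI1 (0.89) and YY1 (0.87), SQLE (0.89) and TFAM (0.88) were among those nearest to IDI1, and those nearest to INSIG1 were STOM (0.94), DCK (0.90) and RAB14 (0.90). For CYP51A1 the nearest genes were SCD (0.89), the desaturase of fatty acid synthesis, YWHAZ (0.88) and AC015987.2 (0.84). NISCH (0.88), FAM65C (0.88) and PASK (0.87) were nearest to LSS, and ANXA5 (0.87), CAP1 (0.87) and EIF2B2 (0.85) to FDFT1. HMGCS1 and SREBF2 had looser neighbours, HNRNPH3 (0.80), BRCC3 (0.75) and GGA2 (0.73) for the first and HGSNAT, MLXIP and IL18BP (0.74, 0.74 and 0.73) for the second.

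Base composition went with the fold changes of all mRNAs in several fRIPs. Across 13406 mRNAs, which share libraries and are not independent, Spearman's rho between GC content and log2 fold change was 0.47 in CBP fRIP and 0.38 in HNRNPH1 fRIP, where the GC-rich LSS was enriched, although HMGCS1, with 39.0% GC, was the member most enriched in HNRNPH1 fRIP. The highest rho was 0.51, in CTCF fRIP, where no member was called. It was -0.55 in RBBP5 fRIP and -0.43 in IMP1 fRIP, where LSS had -0.82, the GC-rich SREBF2 0.56, and INSIG1 was enriched. In HDAC1 fRIP, where LSS was also enriched, it was -0.06, and in WDR5 fRIP 0.07. In SUZ12 fRIP the highest rho was with exon number, at 0.54, while CYP51A1 with 10 exons was depleted and HMGCS1 with 11 exons enriched.

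Whether antibodies to related proteins recovered different amounts of these mRNAs was compared directly, without input. SUZ12 and EZH2 are subunits of the same Polycomb complex. In this contrast HMGCS1 was higher in SUZ12 fRIP, at 101 to 132 FPKM against 39.3 and 48.6 in the EZH2 libraries, with a log2 difference of 1.42 ± 0.30 (adjusted p 5.49e-05), where 18.5% of all genes were higher. SQLE was lower, at 39.9 to 48.8 FPKM against 119 and 204 (-1.81 ± 0.28, adjusted p 1.42e-07), as were INSIG1, at 32.9 to 36.2 against 99.5 and 113 (-1.58 ± 0.19, adjusted p 1.76e-10), and CYP51A1, at 12.2 to 18.9 against 36.1 and 45.7 (-1.38 ± 0.33, adjusted p 0.000362), where 13.1% of genes were lower. None of these 4 overlapped between the libraries of the targets. The other members had differences of 0.71 (FDFT1), 0.69 (LSS), -0.54 (SREBF2) and -0.59 (IDI1) and were not called, although their libraries did not overlap either. Of all genes tested, 63.8% were without overlap between these libraries. FDFT1 was called without EZH2 replicate 1, at 1.07. The input sets nearest to these targets differed, set 1 for SUZ12 and set 3 for EZH2. With each target taken relative to its nearest set, a choice made after seeing the data, CYP51A1 was no longer called (-0.89 ± 0.44, adjusted p 0.122), and HMGCS1 (1.25), SQLE (-1.88) and INSIG1 (-1.51) were. For WDR5 and RBBP5 the nearest set was the same. On coding isoforms alone, HMGCS1 was at 0.35 (adjusted p 0.364) and not called, while SREBF2 (-1.83) and IDI1 (-1.15) were called lower.

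WDR5 and RBBP5 are core subunits of the same methyltransferase complexes. SQLE was higher in WDR5 fRIP, at 179 to 271 FPKM against 82.2 to 118 in RBBP5 fRIP (1.25 ± 0.25, adjusted p 4.24e-05), where 5.17% of all genes were higher. SREBF2 was lower, at 23.8 to 48.2 against 57.0 to 106 FPKM (-1.17 ± 0.24, adjusted p 6.71e-05), and so was CYP51A1, at 22.3 to 42.3 against 46.4 to 88.8 FPKM (-1.06 ± 0.30, adjusted p 0.00277), where 12.9% of genes were lower. Both of the lower calls were lost when the libraries were centred (SREBF2 -0.61, CYP51A1 -0.50), in a fit of only these 6 libraries (adjusted p 0.0594 and 0.0957), and without RBBP5 replicate 1 or WDR5 replicate 3. In the same 6 libraries with the replicate number as a block, which the numbers allow here, a choice made after seeing the data, both were called (adjusted p 0.0075 for each). CYP51A1 was lost also without RBBP5 replicate 2. INSIG1 and IDI1 were higher in WDR5 fRIP by 0.75 and 0.73 without overlap, as were 43.3% of all genes in either direction, and were called after centring (1.32 and 1.30). On coding isoforms alone SREBF2, at -0.96, was not called. On isoforms of other classes IDI1 was called at 1.06 and INSIG1, in the opposite direction, at -2.06.

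Phospho-CBX3 and CBX3, the heterochromatin protein HP1γ with and without selection of its phosphorylated form, gave no called member, and 2.73% of all genes differed in either direction. The widest difference was that of CYP51A1, at 29.4 to 51.6 FPKM in phospho-CBX3 fRIP against 19.7 to 27.7 in CBX3 fRIP (0.77 ± 0.30, adjusted p 0.0844), which was called when phospho-CBX3 replicate 1 was left out, at 1.01.

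**Figure D3:**
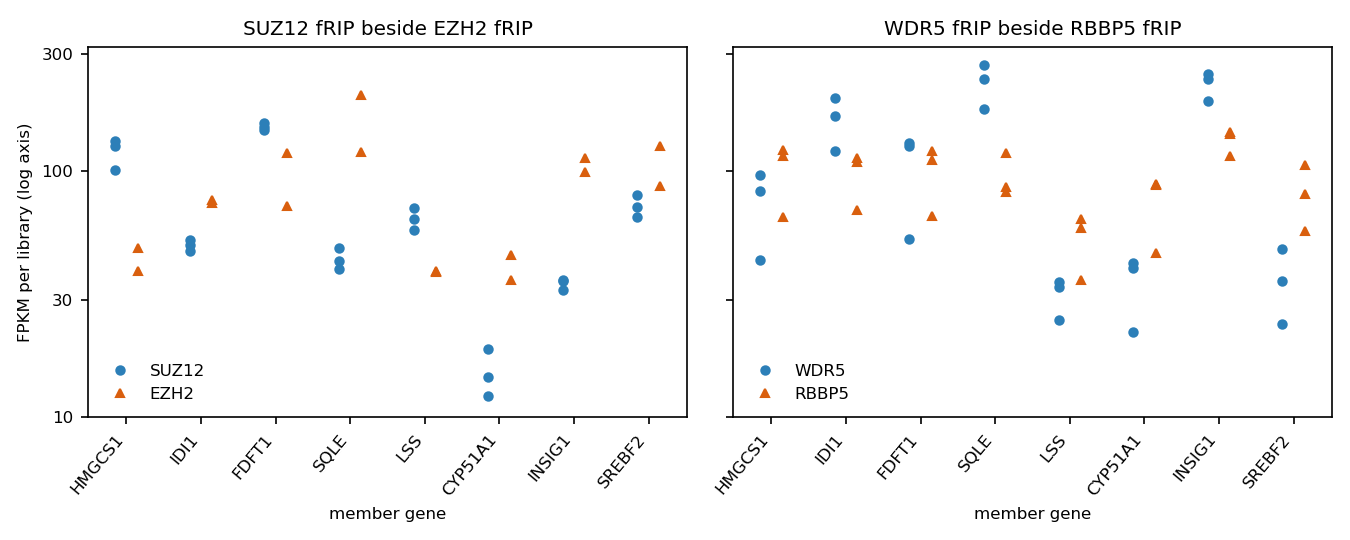
FPKM of each library on a log axis for the 8 members, SUZ12 (circles) beside EZH2 (triangles) on the left and WDR5 (circles) beside RBBP5 (triangles) on the right. SQLE stands at 39.9 to 48.8 FPKM in the SUZ12 libraries and at 119 and 204 in the EZH2 libraries, and at 179 to 271 in the WDR5 libraries above 82.2 to 118 in the RBBP5 libraries.

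The isoform values showed that gene levels mixed different transcripts. Isoforms that the annotation does not class as protein coding, many of them retained intron transcripts, made up between 0.93% (CYP51A1) and 45.0% (LSS) of a member's FPKM in input. Isoform values are estimates that divide the reads shared between isoforms, and 3 FDFT1 isoforms that the annotation lacks were left out of the shares. The share was tested for 7621 genes with at least 5 FPKM in input by a two-sided exact permutation test, adjusted over all 182889 tests. Of the 192 member comparisons, 56 were higher (29.2%) and 47 lower (24.5%) at an adjusted p under 0.05, against 19.1% and 11.7% of all tests. With 2 libraries against 9 the adjusted p could not fall below 0.0528, so no gene could be called in EZH2 or STAG2 fRIP. The share was lower for 7 members each in PABP, IMP1 and CHD4 fRIP, where it was lower for 43.2%, 35.7% and 37.2% of all genes. It was lower for 6 members in PCAF fRIP and 5 in WDR5 fRIP, beside 32.8% and 24.2% of all genes. The share was higher for 7 members each in CBX3, PHF8 and SUZ12 fRIP, where it was higher for 45.1%, 34.3% and 54.8% of all genes. It was higher for 6 members in HNRNPH1 and 5 in ADAR fRIP, beside 58.3% and 44.6% of all genes. Over the 7621 genes the median share was 24.4% in input, and the median difference was -6.13 percentage points in PABP and -5.88 in IMP1 fRIP, 15.5 in HNRNPH1, 11.6 in SUZ12 and 11.2 in ADAR fRIP. In 23 of 24 fRIPs the median difference of the members had the sign of that of all genes, but not always its size. The median over the members was 26.0 percentage points in SUZ12 fRIP and 14.6 in PHF8 fRIP, where that over all genes was 11.6 and 6.98.

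**Figure D4:**
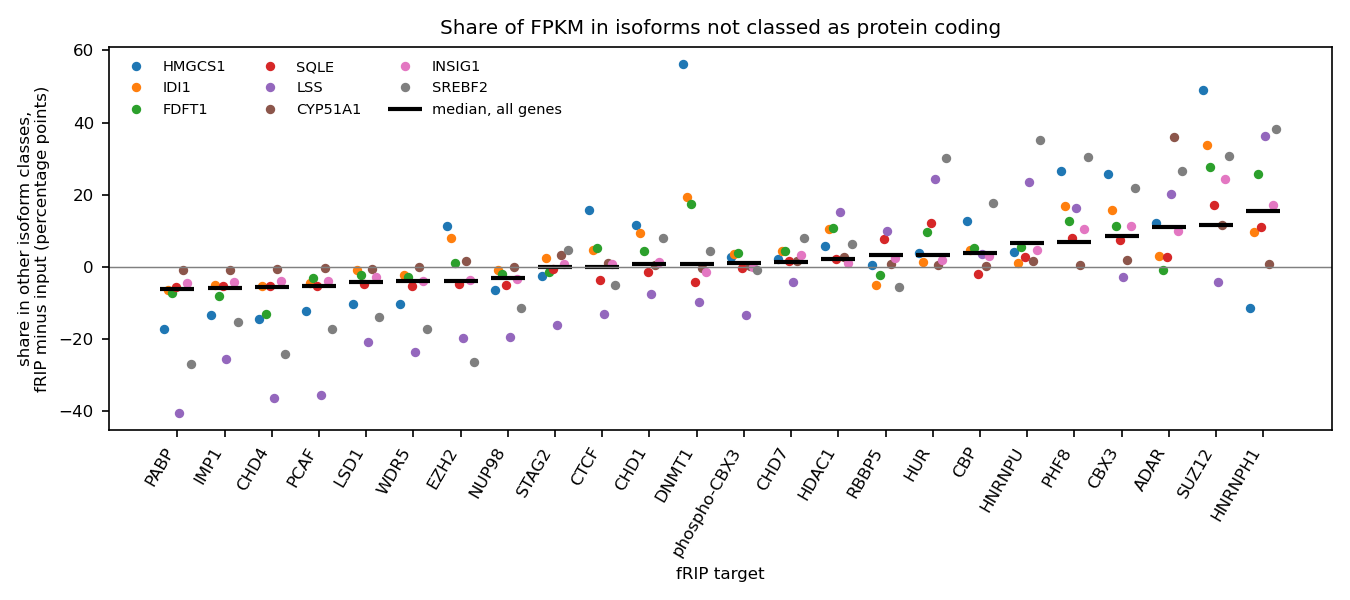
Difference from input, in percentage points, of the share of a gene's FPKM in isoforms not classed as protein coding, for the 8 members (coloured points) in the 24 fRIPs, ordered by the median over 7621 genes (black bars). In PABP and IMP1 fRIP all 8 members lie below 0, and in DNMT1 fRIP HMGCS1 stands far above the median of all genes, 0.80.

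HMGCS1 showed the largest single difference of a share from input. Its share in these isoforms was 12.5 to 25.2% in the input libraries, and 72.5, 73.0 and 75.8% in DNMT1 fRIP and 66.1, 66.8 and 66.9% in SUZ12 fRIP, all above every input (adjusted p 0.0195 for each, exact permutation test). The isoform behind the DNMT1 value was ENST00000507293, a retained intron transcript of 3 exons (chr5:43298548-43313576, minus strand), at 46.7, 65.2 and 84.9 FPKM in DNMT1 fRIP and at no more than 4.30 FPKM in any input library. In SUZ12 fRIP it was at 4.95, 8.29 and 5.90 FPKM. There the leading isoform was ENST00000507004 (chr5:43298246-43313575), with 38.3, 48.2 and 45.8 FPKM against 4.68 to 8.85 FPKM in input. HMGCS1 in DNMT1 fRIP, with a gene-level log2 fold change of 0.95, was not called although its share differed. In PABP fRIP the share was 0.31% on average. In HNRNPH1 fRIP, where the share of 6 other members was higher than in input, the HMGCS1 share differed from input by -11.4 percentage points, and the coding isoform ENST00000433297 carried 114 FPKM of the gene.

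LSS and SREBF2 had the largest shares in HNRNPH1 fRIP. The LSS share rose from 38.6 to 49.4% in the input libraries to 81.4, 81.5 and 80.7% in HNRNPH1 fRIP, and fell to 6.42, 2.75 and 4.59% in PABP fRIP, with no overlap between any of these groups. ENST00000472272, which lies at the start of the gene (chr21:47647233-47648688), stood at 8.10 FPKM in input and 41.2 FPKM in HNRNPH1 fRIP on average. The retained intron isoform ENST00000474319 at its end (chr21:47609039-47613284) stood at 7.88 and 40.4 FPKM. The antisense gene AP001469.5 overlaps LSS and reached 20.6 FPKM in an HNRNPH1 library, against 1.60 to 3.83 in input, and its part in these values was not tested. The SREBF2 share was 25.2 to 37.2% in input, 71.9, 62.3 and 72.9% in HNRNPH1 fRIP, and 4.21, 2.59 and 4.53% in PABP fRIP. In EZH2 fRIP, where SREBF2 was enriched, the share was 4.74 and 3.84%, below every input library.

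The other members had their highest share in SUZ12 or ADAR fRIP. In SUZ12 fRIP it was 48.3% on average for IDI1 (input 14.4%), 49.5% for FDFT1 (21.7%), 28.8% for INSIG1 (4.47%) and 23.0% for SQLE (5.78%). The CYP51A1 share was 46.4, 25.0 and 39.2% in ADAR fRIP against at most 1.43% in input. It came from the retained intron isoform ENST00000482924 (chr7:91743008-91746762, minus strand), at 14.0, 8.26 and 18.5 FPKM in ADAR fRIP and at no more than 1.04 FPKM in any input library. ADAR edits adenosines in double-stranded RNA. The 3 ADAR libraries were the shallowest of the series, so that 1 fragment weighed more in them.

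When the same limma fit was made on the sum of the coding isoforms, a choice made after seeing these data, 17 comparisons were called, 13 of them shared with the 16 at the gene level. The share of all genes called in this fit is not given here, so the count is no result about the members. HMGCS1 in SUZ12 fRIP was then at -0.20 and LSS in HNRNPH1 fRIP at -0.17, both without a call, while the isoforms of other classes were at 2.92 and 2.17. LSS in HDAC1 fRIP, at 0.84, was the third call lost. INSIG1 kept its depletion on the coding isoforms in SUZ12 (-1.83) and HNRNPH1 fRIP (-1.89), with the other isoforms at 1.13 and 0.57. For SQLE and INSIG1 in WDR5 fRIP the coding isoforms were at 1.84 and 1.29 and the others at -1.25 and -1.07. CYP51A1 in ADAR fRIP, at -0.58 for the gene, was called depleted on the coding isoforms, at -1.22. So were FDFT1 (-1.12) and SQLE (-1.10) in HNRNPH1 fRIP and LSS in HUR fRIP (-1.23).

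**Figure D5:**
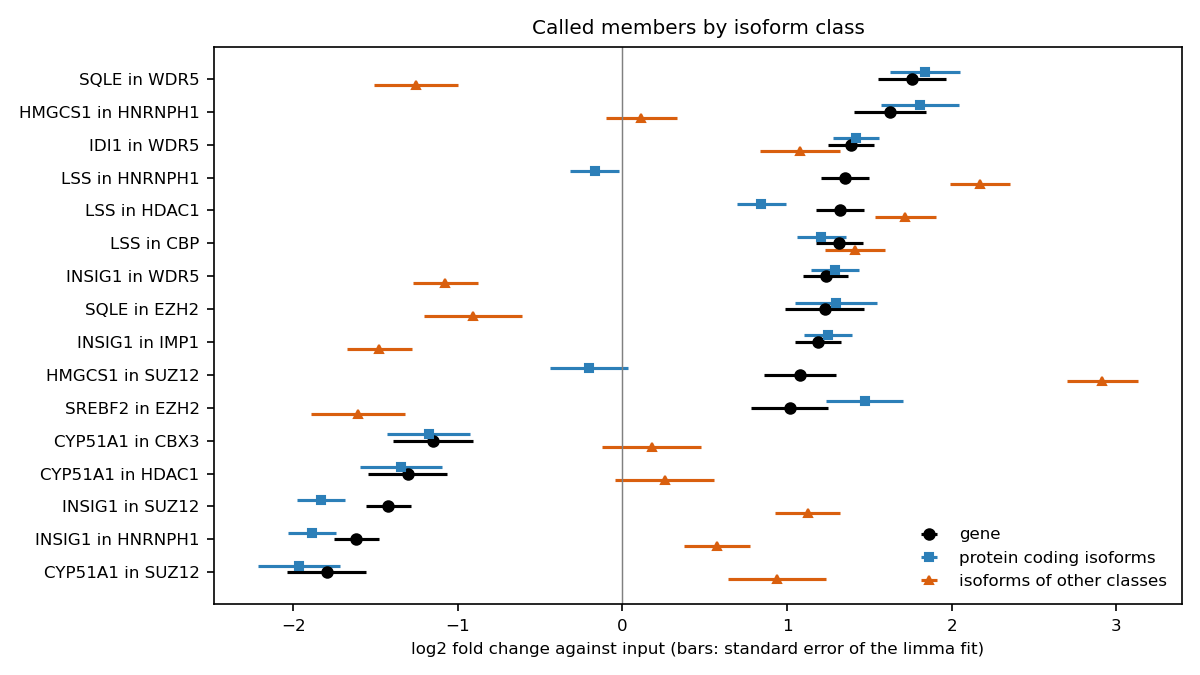
Log2 fold change against input of the 16 called comparisons for the gene (black circles), its protein coding isoforms (blue squares) and its isoforms of other classes (orange triangles), with bars for the standard error of the limma fit. For HMGCS1 in SUZ12 fRIP the coding isoforms lie at -0.20 and the others at 2.92, and for INSIG1 in IMP1 fRIP they lie at 1.25 and -1.48.

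Direct contrasts differed in the same measure. The shares of the SUZ12 and EZH2 libraries did not overlap for any of the 8 members, nor for 77.4% of all 7621 genes, with INSIG1 at 27.8 to 29.5% in SUZ12 fRIP against 0.50 and 0.91% in EZH2 fRIP. Between phospho-CBX3 and CBX3 fRIP 7 members and 44.5% of all genes did not overlap, although no member was called at the gene level, with HMGCS1 at 15.4 to 23.5% against 41.4 to 45.6%. Between WDR5 and RBBP5 fRIP 5 members and 52.2% of all genes did not overlap, with LSS at 18.4 to 24.0% against 50.7 to 58.3%.

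Most comparisons of the rest of the synthesis pathway had no call. Over 15 other synthesis enzymes, 19 of 360 comparisons were enriched (5.28%) and 9 depleted (2.50%), with a median log2 fold change of 0.05. Over all genes 6.90% and 5.52% of comparisons were called, so these counts and those of the next 3 lists, all near or below these shares, are no result about the lists. PMVK, the kinase of phosphomevalonate, was at 1.68 in PABP and -1.22 in HUR fRIP. MVD, which makes isopentenyl diphosphate, was at 1.98 in CBP and -1.10 in HUR fRIP, and TM7SF2, a sterol reductase, at 1.89 in CBP fRIP. EBP, a sterol isomerase, was at 1.13 in DNMT1 and -1.23 in SUZ12 fRIP.

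Of 12 genes of uptake and transport, 9 passed the filter, with 16 of 216 comparisons enriched (7.41%) and 11 depleted (5.09%). NPC2, which carries cholesterol in the lysosome, was depleted in 7 fRIPs, to -1.81 in HNRNPH1 fRIP, and was at 1.54 in PABP fRIP. MYLIP, a ubiquitin ligase that lowers lipoprotein uptake, was enriched in 4 fRIPs, up to 1.58 in HNRNPH1 fRIP.

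Among 5 genes of sterol sensing 9 of 120 comparisons were enriched (7.50%) and 3 depleted (2.50%). SREBF1, the paralog of SREBF2, was enriched in 5 fRIPs, up to 2.41 in CBP fRIP, and was at -1.18 in HUR fRIP. SCAP, the escort of the precursors, was at 1.42 in CBP fRIP. In fatty acid synthesis 12 of 192 comparisons were enriched (6.25%) and 7 depleted (3.65%) over 8 genes. SCD was at -2.04 in SUZ12 and 1.26 in IMP1 fRIP, the fRIPs at which CYP51A1 was lowest and highest. ACACA, the carboxylase at the start of fatty acid synthesis, was at 1.99 in SUZ12 fRIP and FASN at -1.40 in DNMT1 fRIP.

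The list of translocon and folding genes of the endoplasmic reticulum had more depletions than enrichments, with 19 of 432 comparisons enriched (4.40%) and 57 depleted (13.2%) over 18 genes, against 6.90% and 5.52% of all comparisons, and a median of -0.22. Of the 57 depletions, 35 belonged to 3 genes, and the other 15 genes had 22 of 360 comparisons depleted (6.11%). The 3 genes were picked for having the most depletions, which lowers the share of the rest, so that share has no like value over all genes. SEC61G, a subunit of the translocation channel, was depleted in 12 fRIPs and enriched in 3, from -2.29 in SUZ12 to 2.05 in PABP fRIP, SSR4 of the translocon-associated complex was depleted in 13, to -2.55 in HUR fRIP, and SEC61B, another channel subunit, in 10, to -2.31 in HUR fRIP. No test was made of the difference between the lists.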

How the data were processed

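The deposited gene and isoform tables hold FPKM per library, which the authors made by sequencing ribosome-depleted RNA in short paired reads, aligning with TopHat to hg19 and quantifying GENCODE v18 with Cuffdiff 2. The submitters' processing notes also name CASAVA 1.4 and Cuffnorm. The kit does not mark strand. The authors' tables of comparisons also hold fold changes, test statistics, p-values and q-values, which were not used. Only their group FPKM was read, to infer which input set lay nearest to each comparison's input, since the labels do not give it.
One limma 3.58.1 fit (R 4.3.3) with an intensity trend held all 79 libraries on log2(FPKM + 1), for genes that reached 1 FPKM in at least 2 libraries, with Benjamini-Hochberg adjustment within each comparison. All 24 comparisons share the 9 input libraries. Exact permutation tests were two-sided, and those of isoform shares were adjusted over all 182889 tests of 7621 genes. Positions, isoform classes and sequences came from GENCODE v44 on the hg19 assembly. Python 3.11.15, numpy 2.4.6, pandas 2.3.3 and matplotlib 3.10.9 were used, and the fit was tested on simulated data. The step that 1 fragment adds to FPKM gave the depth, with 73.2 to 85.2% of low values within 0.15 fragments of a whole multiple of it.
The members and the gene lists were chosen with earlier results of these data known. For each member the fRIPs of highest and lowest fold change are named with each library and the 3 genes of highest r, and up to 6 genes are named per list, those called in most fRIPs. Some genes that these rules name are not reported here. The second STAG2 library carries no matching number and entered without one. The pairing by replicate number was checked by correlating deviations from the group means. Every pair exceeded 0.1 for CHD1, NUP98, PCAF and WDR5 with their input set, and for WDR5 with RBBP5 (0.146 to 0.430), and there, from the data and not the labels, pairing was accepted.
Alternatives covered pseudocounts, filters, centring, input sets, replicate blocks, own libraries only, each library left out and isoform classes.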

Additional observations from a re-analysis of the deposited data

Results flagged for a closer look

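In the input libraries, replicate 3 of set 2 stood apart for 2 of the 8 members, with a gap on the scale of log2(FPKM + 1) to the nearest library of 0.621 of the whole range for FDFT1 (81.5 FPKM, the others 127 or more) and of 0.669 for SREBF2 (28.7 FPKM). Checks of 16 groups were made, and chance gives such a gap in about 1 of 20. Set 2 lay nearest to CHD1, NUP98, PCAF, RBBP5 and WDR5 fRIP. In each of these, replicate 3 was also the lowest library for FDFT1 and for SREBF2. A cause shared by these libraries was not tested.
Responses differed between 2 targets of the same complex in 7 of 16 direct comparisons, each tested in the limma fit. Of all genes, 18.5% were higher and 13.1% lower in SUZ12 than in EZH2 fRIP. In WDR5 against RBBP5 fRIP 5.17% were higher and 12.9% lower. CYP51A1 and SREBF2 between WDR5 and RBBP5 were lost after centring and in a fit of these libraries alone without a replicate block, and CYP51A1 between SUZ12 and EZH2 relative to their nearest input sets. Between SUZ12 and EZH2 fRIP the log2 differences were 1.42 for HMGCS1, -1.58 for INSIG1, -1.81 for SQLE and -1.38 for CYP51A1. Between WDR5 and RBBP5 fRIP they were 1.25 for SQLE, -1.06 for CYP51A1 and -1.17 for SREBF2.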

How the results depend on the processing

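The count of 16 calls against input was 14 to 23 under other pseudocounts, filters, input sets and blocks and in fits of each target's own libraries, 36 after centring and 67 on isoforms of other classes (5 shared with the 16). The 7 direct calls became 14 on isoforms of other classes. Shares of all genes called in the isoform fits are not given here, so the counts of 67 and 14 are no result about the members. Leaving out 1 library at a time gave 15 to 18, 5 to 8 and, for the isoform shares (103 of 192), 95 to 108. With a replicate block over all numbered libraries there were 15 calls, with the block within input sets 14, and 7 direct calls. Fits of only the 2 targets with the block, added after seeing the data, gave 4 direct calls, the 3 of WDR5 minus RBBP5 and INSIG1 in SUZ12 minus EZH2, where the numbers do not pair the libraries. Where the numbers pair the libraries, the block in fits of all numbered libraries changed no call beyond the INSIG1 call in WDR5 fRIP. The nearest input set alone had ended that call (0.87 with and without the block). In the fit of only the WDR5 and RBBP5 libraries, SREBF2 and CYP51A1 were called with the block and not without it.
Among the 23 called values, signs turned only when coding isoforms or isoforms of other classes were fitted alone, alternatives added after seeing the data. On coding isoforms HMGCS1 in SUZ12 fRIP was at -0.20 and LSS in HNRNPH1 fRIP at -0.17. On isoforms of other classes CYP51A1 was at 0.18 in CBX3, 0.26 in HDAC1 and 0.94 in SUZ12 fRIP, SQLE at -0.91 in EZH2 and -1.25 in WDR5 fRIP, SREBF2 at -1.61 in EZH2 fRIP, and INSIG1 at 0.57 in HNRNPH1, -1.48 in IMP1, 1.13 in SUZ12 and -1.07 in WDR5 fRIP. In the direct contrasts these isoforms gave 0.75 (CYP51A1), 2.16 (SQLE) and 2.66 (INSIG1) for SUZ12 minus EZH2 and -2.80 (SQLE) for WDR5 minus RBBP5.
Over all settings, leaving out each library included, the 23 called values had the same direction and call in 2062 cases, lost the call in 40 and turned sign in 16. Most of these cases left out a library that the comparison does not use, which cannot change its fold change. Of all 192 values against input, called or not, isoforms of other classes turned the sign of 77, coding isoforms of 24, centring of 23 and input set 2 alone of 19. Of the 24 direct values isoforms of other classes turned 12, coding isoforms 4 and centring 3. FPKM holds no counting error of its own, and shares of short isoforms are least precise in the shallow ADAR libraries.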
